A study of Mus musculus with 16 samples.

Results

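Nerve injury without drug was followed in dorsal root ganglia (DRGs) by comparing 4 SNI-Saline mice with 4 Sham-Saline mice, 8 of the 16 libraries of the study, and every one of the 52636 Ensembl genes listed was a member of the comparison. DRGs hold the cell bodies of sensory neurons, each wrapped by satellite glia, together with the Schwann cells of their axons, resident macrophages, vessels and connective tissue. When a peripheral nerve is cut, the axotomized neurons switch from a transmitting to a growth program. That program is led by transcription factors such as Atf3 and Jun and includes neuropeptides, growth-associated proteins and signals to macrophages. Ion channels and receptors of intact neurons are often reduced at the same time. In spared nerve injury (SNI) some branches of the sciatic nerve are cut and another is left intact, so that the ganglia hold injured and uninjured neurons side by side.

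All mice were male C57BL/6J mice of 3 to 4 months, and each library came from the L3-6 DRGs of 1 mouse. In the SNI mice the common peroneal and sural branches of the sciatic nerve were tied and cut, and Sham mice had the surgery without the cut. Saline was injected intraperitoneally 2 times per day for 3 weeks, starting 4 weeks after surgery by the study's results section (its methods section gives 4 months). The other 8 libraries came from Sham-DMI and SNI-DMI mice, which had the same surgeries and received desipramine (DMI), a tricyclic antidepressant, at 15 mg/kg in place of saline. They entered the fit, and they served as a second, separate pair of injured and sham groups.

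Between 54975901 and 70125807 reads per saline library were counted on genes. Of the genes listed, 21371 had enough counts to be tested. Values are given as CPM, counts scaled to library size with edgeR's TMM method, and changes as the log2 fold change of SNI-Saline against Sham-Saline from edgeR's quasi-likelihood test. A gene is called raised or lowered here if its Benjamini-Hochberg adjusted p was under 0.1 and its log2 fold change was at least 0.32 in size. GEO's tissue label reads spinal cord, whereas its cell type label reads dorsal root ganglia. Markers of sensory neurons (Isl1, Avil, Prph, Prdm12, Pou4f1 and Scn10a) summed to between 3900 and 4310 CPM in the 8 libraries. The spinal cord markers Aqp4, Mog, Chat and Mnx1 summed to between 10.3 and 13.7 CPM. Most of this was Aqp4, at 10.1 to 13.4 CPM, and Mog did not exceed 0.749 CPM. The motor neuron markers Chat and Mnx1 did not exceed 0.0482 and 0.0306 CPM. Whether the samples held some spinal cord tissue was not tested. The tissue is called DRG here. The library numbers in the labels are 37 to 40 for Sham-Saline and 33 to 36 for SNI-Saline, so that any effect of that order cannot be told apart from injury.

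Injury raised 430 genes (2.01% of those tested) and lowered 439 (2.05%), 4.07% together. Without the cut-off on size 1250 genes were higher (5.85%) and 1321 lower (6.18%). The raised genes included the larger changes. Of the raised genes 112 changed by at least 1 on the log2 scale and 38 by at least 2, compared with 39 and 3 of the lowered genes, and the median change was 0.58 among raised and -0.42 among lowered genes. The 38 included structural noncoding RNAs, at 2.19 to 2.25 here and 0.19 to 0.85 in SNI-DMI against Sham-DMI. Processed pseudogenes made up 50 of the 430 raised and 6 of the 439 lowered genes, and 2077 of the 21371 tested. Whether library preparation played a part was not tested. All 4 SNI-Saline values lay outside the Sham-Saline range in 340 raised (79.1%) and 350 lowered genes (79.7%), where 15.4% of all genes did so (7.67% above and 7.74% below). In a principal component analysis of the 8 libraries the first component, with 25.2% of the variance, ran from -31.65 to -10.33 in Sham-Saline and from 6.09 to 34.28 in SNI-Saline. The number of calls depended on single libraries. Leaving out Sham-Saline replicate 3 gave 169 raised and 172 lowered genes, and leaving out SNI-Saline replicate 2 gave 209 and 154. Of the tested genes 1075 belonged to 48 lists of DRG cell types, channels, receptors and pathways, and 94 raised and 41 lowered genes were among them. The lists were written with earlier results of these data known, so their counts describe the members and do not test the families. Each list count is to be read beside the 2.01% raised and 2.05% lowered among all genes tested. In bulk ganglia, fewer cells of a type and less RNA per cell cannot be told apart.

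**Figure D1:**
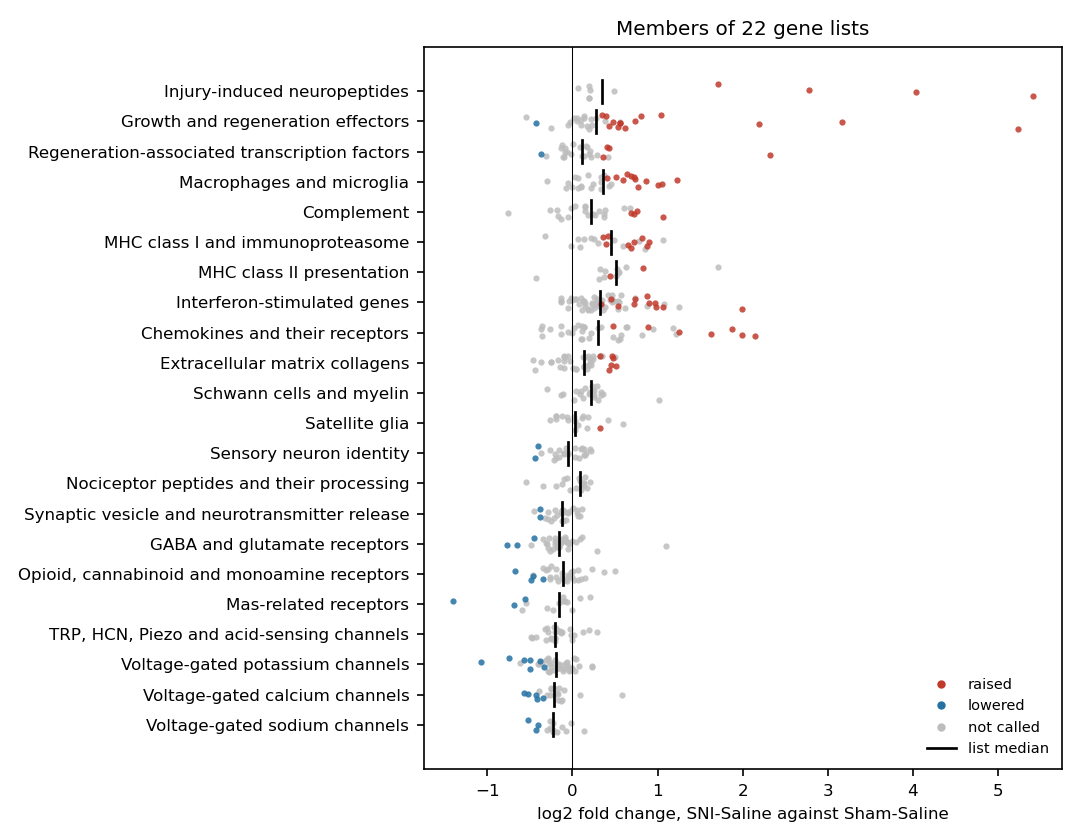
Log2 fold change of SNI-Saline against Sham-Saline (horizontal axis) of every tested member of 22 gene lists (vertical axis), with raised genes in red, lowered genes in blue, genes not called in grey and the list median as a black bar. The largest changes are in neuropeptides and growth effectors (up to 5.41), the immune lists lie to the right of 0, and the channel and receptor lists lie slightly to the left of it.

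The lists of injured-neuron genes, 3 in number, held regeneration-associated transcription factors, injury-induced neuropeptides and growth effectors. Of their 68 tested genes 22 were raised (32.4%, against 2.01% of all genes) and 2 were lowered. Their members were chosen with earlier results of these data known, which can raise that share. The count raised stayed between 18 and 24 in the 24 alternative fits, though single genes lost their call. With each library's trend on gene length and GC content removed, 19 were raised and none was lowered. Atf3, the transcription factor that marks axotomized neurons, was measured at 12.1, 11.9, 10.6 and 7.44 CPM in the Sham-Saline mice and at 50.9, 51.5, 52.4 and 54.6 CPM in the SNI-Saline mice. The injured mice were nearly alike and lay far above every sham mouse (4.98-fold, log2 fold change 2.32, SE 0.222, adjusted p = 2.51e-05). Its partner Jun, a subunit of AP-1, was raised much less, from 92.3, 98.1, 93.8 and 88.2 CPM to 117, 117, 113 and 131 CPM (log2 fold change 0.36, adjusted p = 0.0221), and so were Sox11 (0.43), a developmental factor of growing neurons, and Csrnp1 (0.41). Klf7, a factor that promotes axon growth, was lowered by 0.38 on the log2 scale (adjusted p = 0.0498). The other 20 of the 25 factors tested were not called, and the list's median was 0.11. Jun shares exon bases with an antisense gene, Junos, as 45 of the 163 genes named here do with another gene, and the strand setting of the counting is not given in the sources used here, so their counts may hold reads of the partner.

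Npy, neuropeptide Y, which uninjured sensory neurons hardly make, stood at 0.157, 1.55, 0.249 and 0.106 CPM in Sham-Saline and at 22.3, 23.8, 19.4 and 26.2 CPM in SNI-Saline. Sham-Saline replicate 2 stood above the other sham mice, and every injured mouse was far above it. This was the largest change among the called genes with a mean of at least 1 CPM (log2 fold change 5.41, SE 0.592, adjusted p = 9.15e-05). Nts, neurotensin, was already present in sham ganglia at 12.1, 10.8, 8.62 and 9.87 CPM and stood at 73.3, 66.0, 62.8 and 82.2 CPM after injury (6.87-fold, log2 fold change 2.78, adjusted p = 5.5e-06). Ucn, urocortin, a peptide of the corticotropin-releasing family, was nearly absent from sham ganglia, with 3 to 10 counts per library (0.0869, 0.141, 0.0779 and 0.0453 CPM), and had 1.5, 1.45, 1.56 and 1.41 CPM after injury (log2 fold change 4.03, adjusted p = 2.7e-05). Crh, the family's founding member, was raised from between 1 and 10 counts to between 10 and 28 (1.70, adjusted p = 0.0791). Gal, galanin, a well known peptide of injured sensory neurons, was not called. It stood at 14.6, 24.2, 23.6 and 30.7 CPM in Sham-Saline and 37.3, 43.7, 24.1 and 25.4 CPM in SNI-Saline, so SNI-Saline replicates 3 and 4 lay within the sham range (0.48, adjusted p = 0.144). Vip did not exceed 0.0467 CPM in any of the 8 libraries and was not tested.

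**Figure D2:**
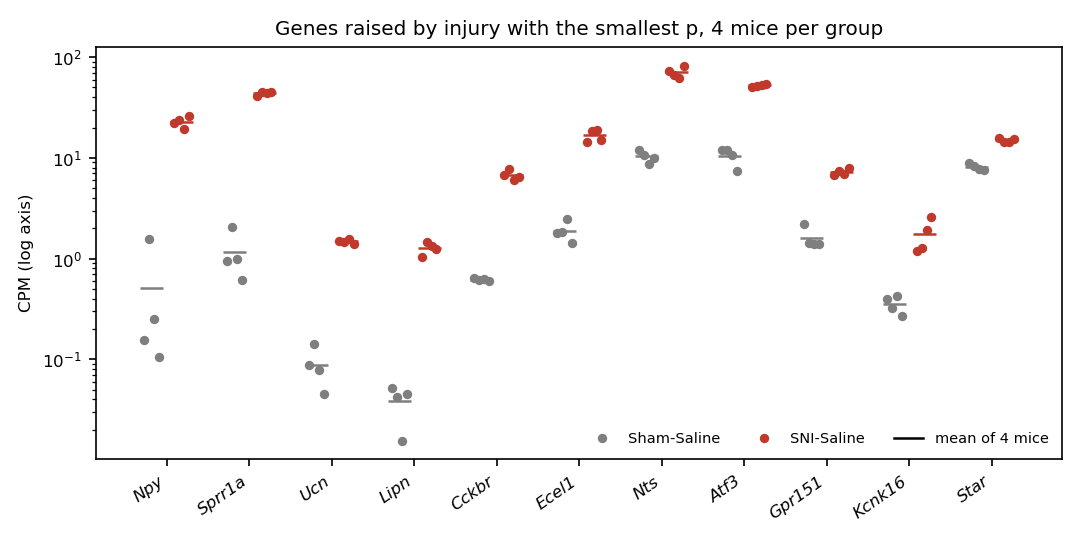
CPM on a log axis of 11 of the 12 raised genes of smallest p that had no overlap between groups, for each Sham-Saline mouse (grey) and each SNI-Saline mouse (red), with horizontal bars at the means of 4 mice. The groups are separated in every gene, from 1.84-fold for Star to 42.5-fold for Npy.

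Among growth effectors 14 of 33 genes were raised and 1 was lowered. Sprr1a, a small proline-rich protein that is made after axotomy, stood at 0.939, 2.06, 0.982 and 0.619 CPM in Sham-Saline and at 41.1, 45.2, 43.7 and 45.5 CPM in SNI-Saline (37.6-fold, log2 fold change 5.23, SE 0.540, adjusted p = 5.05e-05). Ecel1, a membrane metalloprotease also known as DINE for its induction by damage, had 1.79, 1.82, 2.46 and 1.43 CPM in sham and 14.4, 18.7, 19.1 and 15.1 CPM in injured mice (8.96-fold, adjusted p = 5.5e-06). Gpr151, an orphan receptor of sensory neurons, was raised 4.55-fold, to between 6.72 and 7.98 CPM. Each of these 3 genes had no overlap between groups. Smaller increases were seen in Fst, the activin inhibitor follistatin (log2 fold change 1.04), in the tubulin-binding Stmn4 (0.80) and the tubulin Tubb6 (0.56), and in Tnfrsf12a, the receptor of TWEAK (0.73). Gadd45a (0.43) and Gadd45g (0.56), stress-responsive genes of DNA repair and demethylation, the adhesion protein Flrt3 (0.62), the guidance protein Sema6a (0.47) and Socs3, an inhibitor of cytokine signalling (0.35), were also raised. Gap43, the growth cone protein, is abundant in adult ganglia and stood at 235, 254, 232 and 231 CPM in sham and 326, 323, 285 and 313 CPM in injured mice (1.31-fold, adjusted p = 0.00231). Lifr, a receptor subunit for leukemia inhibitory factor, was lowered (log2 fold change -0.43, adjusted p = 0.0228). With the trends on length and GC content removed, Gap43, Socs3 and Lifr lost their call, as did Jun, Klf7 and Crh. Klf7 and Crh also lost it when replicate 1, 3 or 4 of Sham-Saline or replicate 1 or 4 of SNI-Saline was left out.

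Secreted signals and a few receptors were raised as well. Csf1, the macrophage growth factor that injured sensory neurons are known to make, stood at 21.1, 25.4, 27.4 and 23.6 CPM in sham and 35.5, 38, 32.6 and 35.5 CPM in injured mice (1.45-fold, adjusted p = 0.0163). Cckbr, the cholecystokinin B receptor, changed more than any other of the 27 neuropeptide receptors tested, from 0.643, 0.607, 0.623 and 0.604 CPM to 6.72, 7.69, 6.07 and 6.48 CPM (10.9-fold, adjusted p = 2e-05). Kcnk16, a 2-pore potassium channel, was the single raised member of the potassium channel lists, at 0.400, 0.325, 0.421 and 0.272 CPM in sham and 1.18, 1.27, 1.93 and 2.58 CPM in injured mice (4.92-fold, adjusted p = 0.000541). Star, which carries cholesterol into mitochondria for steroid synthesis, was raised 1.84-fold, with 14.4 to 15.7 CPM in injured mice. Car1, carbonic anhydrase 1, was raised 4.98-fold to between 2.36 and 2.59 CPM, while the red cell markers Alas2, Hba-a1 and Slc4a1 overlapped between groups (7.88 to 41.9 CPM in sham and 13.4 to 37.1 CPM in injured mice, summed). Lipn, a lipase described in skin, had 1 to 3 counts in each sham library, 10 in all, and 310 counts in the injured libraries, a ratio of 33.4 (exact 95% interval 17.9 to 70.3, counting error only).

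The promoters of 2 of these neuropeptide and growth genes, and of Lipn, are shown because they are the 3 raised genes with the smallest p that hold the AP-1 motif TGANTCA, the letters bound by Jun, Fos and Atf3 family dimers, in the 250 bases before their start. The windows are 80 bases from RefSeq (GRCm38.p6), printed along the strand of the gene, at chr10:102490583-102490662 (minus strand) for Nts, chr3:92485955-92486034 (minus) for Sprr1a and chr19:34067173-34067252 (plus) for Lipn, with the motif in capitals.
Nts: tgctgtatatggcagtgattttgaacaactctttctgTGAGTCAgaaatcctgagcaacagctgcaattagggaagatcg
Sprr1a: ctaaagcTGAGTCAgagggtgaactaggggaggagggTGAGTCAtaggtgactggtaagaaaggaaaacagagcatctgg
Lipn: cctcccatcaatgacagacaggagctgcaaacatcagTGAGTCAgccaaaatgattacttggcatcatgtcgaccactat
The same letters, TGAGTCA, occur in all 3 windows, 200 bases before the start in Nts, 139 and 109 in Sprr1a and 141 in Lipn. Searched on both strands, the AP-1 motif was in 42 of the 281 raised genes with a promoter in the table (14.9%), in 13 of 302 lowered genes (4.3%) and in 797 of all 13452 tested genes with a promoter (5.92%). The cyclic AMP element TGACGTCA, which shares its first 3 letters with the AP-1 motif, was in 1.42% of raised, 2.32% of lowered and 2.71% of all promoters. These are counts of letters in these windows, with no measurement of binding.

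Immune genes formed the second group. Across 6 lists (macrophages, complement, MHC class I with the immunoproteasome, MHC class II, interferon-stimulated genes, and chemokines with their receptors) 45 of 181 tested genes were raised (24.9%, against 2.01% of all genes). None was lowered by edgeR or by DESeq2 on all 16 libraries (3 were lower at an unadjusted p under 0.05), with 1 lowered in 3 of the 24 alternative fits. In all 153 of the 181 genes were higher after injury, and the median log2 fold change was 0.36. The increase was uneven between mice. Of the 45 raised genes 29 had their highest value in SNI-Saline replicate 2, 15 in replicate 1, 1 in replicate 4 and none in replicate 3. Leaving out SNI-Saline replicate 1 left 15 raised genes, leaving out replicate 2 left 6 and leaving out replicate 3 gave 58. Without Sham-Saline replicate 3 the count was 6, and it was 18 without Sham-Saline replicate 1 and 17 without replicate 4. With trends on gene length and GC content removed it was 13. The median stayed between 0.25 and 0.42 throughout.

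**Figure D3:**
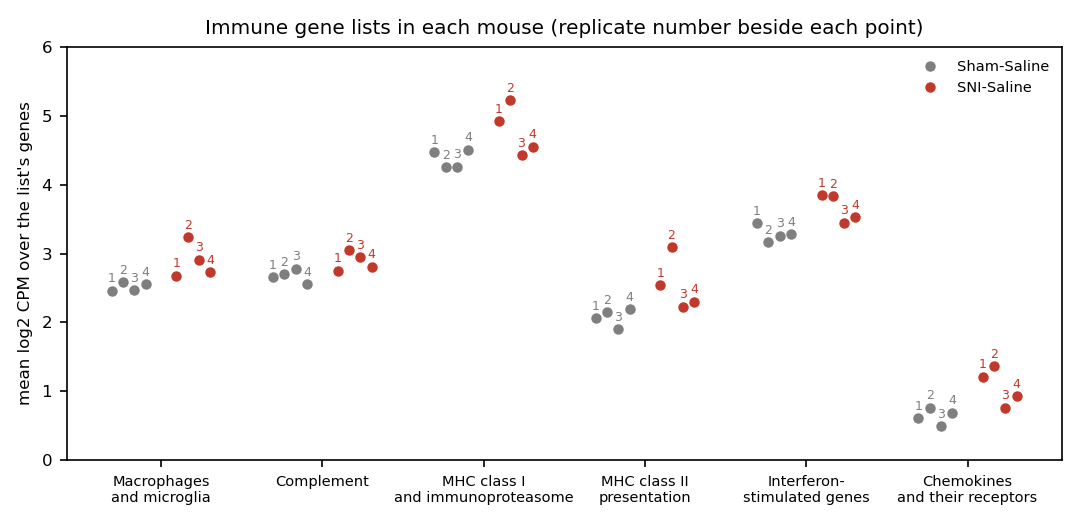
Mean log2 CPM over the tested genes of 6 immune lists in each Sham-Saline mouse (grey) and SNI-Saline mouse (red), with the replicate number beside each point. SNI-Saline replicate 2 is the highest of the 8 mice in 5 lists and close to replicate 1 in the interferon list (3.83 and 3.85), and in MHC class I replicates 3 and 4 (4.43 and 4.55) lie within or just above the sham range of 4.25 to 4.51.

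Of 30 macrophage genes 12 were raised (median 0.35). Trem2, a lipid receptor of phagocytes, stood at 1.22, 1.92, 1.37 and 1.40 CPM in sham and 2.43, 5.12, 3.66 and 2.69 CPM in injured mice (2.34-fold, adjusted p = 0.0151). Gpnmb, a glycoprotein of lysosome-rich macrophages, had 7.16, 6.44, 6.06 and 5.6 CPM in sham and 9.49, 15.6, 11.2 and 9.56 CPM in injured mice (1.81-fold, adjusted p = 0.00923). Lgals3, galectin 3, was raised 1.61-fold (adjusted p = 0.00983). These 3 genes had no overlap between groups and were called in every alternative fit. Ctss, the lysosomal protease cathepsin S, was at 14.1, 12.5, 12.7 and 14.6 CPM in sham and 21, 46.3, 22.2 and 19.1 CPM in injured mice (2.01-fold, adjusted p = 0.0320), with no call without SNI-Saline replicate 2. Tyrobp (log2 fold change 0.74), the adaptor of Trem2, Cd68 (0.77), Ms4a7 (1.05), Spp1, osteopontin (0.41), Aif1 (0.72) and the Fc receptor chains Fcer1g (0.64), Fcgr2b (0.51) and Fcgr3 (0.59) were also raised. The receptor of Csf1, Csf1r, and the general macrophage marker Adgre1 were not called (0.34 and 0.43, adjusted p = 0.222 and 0.294). Mmp12, the macrophage elastase, rose at a low level, from between 6 and 10 to between 20 and 32 counts (3.5-fold, adjusted p = 0.0211). Summed over 4 defining markers, Adgre1, Csf1r, Aif1 and Cd68, macrophage transcripts were at 35.4 to 40.3 CPM in sham and 40.4 to 72.9 CPM in injured mice, the highest being SNI-Saline replicate 2.

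Complement was raised in 4 of 24 genes (16.7%, against 2.01% of all genes). These were the 3 chains of C1q, which opens the classical pathway, and C3, its central component. C1qa stood at 19.5, 22.4, 18.6 and 22.5 CPM in sham and 28.1, 51.3, 30.3 and 27.4 CPM in injured mice (1.65-fold, adjusted p = 0.0590), and C1qb and C1qc had log2 fold changes of 0.76 and 0.69. C3 was at 8.35, 8.30, 6.15 and 5.42 CPM in sham and 10.7, 25.3, 11.3 and 11.6 CPM in injured mice (2.09-fold, adjusted p = 0.0633). In all 4 genes every injured mouse was above every sham mouse, and SNI-Saline replicate 2 was the highest. All 4 lost the call when SNI-Saline replicate 2 or Sham-Saline replicate 1 or 3 was left out. The 3 C1q chains also lost it with the trends on length and GC content removed.

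Antigen presentation by MHC class I was raised in 9 of 22 genes, with a median of 0.45. B2m, the light chain of every class I molecule, stood at 229, 165, 164 and 182 CPM in sham and 260, 456, 213 and 234 CPM in injured mice (1.57-fold, adjusted p = 0.0620), so SNI-Saline replicate 3 lay within the sham range. Tap1, a peptide transporter, was at 15.4, 12.3, 13.7 and 18.6 CPM in sham and 42.6, 35.8, 13.8 and 19.4 CPM in injured mice, with SNI-Saline replicate 3 within the sham range and replicate 4 just above it (1.86-fold, adjusted p = 0.0921). Tap2 (log2 fold change 0.42), the immunoproteasome subunits Psmb8 (0.72), Psmb9 (0.81) and Psmb10 (0.36), and the class I heavy chains H2-T22 (0.39), H2-T23 (0.69) and H2-Q4 (0.88) completed the raised members. None of the 9 kept its call with the trends on length and GC content removed, or when replicate 1 or 2 of SNI-Saline or replicate 3 of Sham-Saline was left out. Psmb9 and Tap1 share exon bases on opposite strands, and class I heavy chains have close paralogs, so the division of reads among them is uncertain. Of 13 MHC class II genes the costimulator Cd86 (0.83) and the peptide editor H2-DMa (0.44) were raised, while the class II chain H2-Aa was not called (66.5, 69.7, 67.8 and 74.3 CPM in sham, 90.9, 157, 79.3 and 81.2 CPM in injured mice, adjusted p = 0.134).

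Of 59 interferon-stimulated genes 11 were raised and 52 were higher after injury (median 0.33). Gbp2, an interferon-inducible GTPase, was at 17.6, 14.6, 13.6 and 19.8 CPM in sham and 169, 40.7, 24.4 and 28.3 CPM in injured mice (3.99-fold, adjusted p = 0.0448), with no call once SNI-Saline replicate 1 or Sham-Saline replicate 3 was left out. Gbp3 (log2 fold change 0.96), Gbp5 (1.06), Igtp (0.91) and Irf1 (0.73), which respond mainly to interferon gamma, were likewise highest in SNI-Saline replicate 1. Genes that respond mainly to type I interferon, Bst2 (0.88), Ifitm3 (0.54), Isg15 (0.73), Mx1 (0.98), Oas1b (0.45) and Xaf1 (0.34), were raised as well. These genes, and Gbp3, Gbp5, Igtp and Irf1, were not called with the trends on length and GC content removed. They also lost the call when replicate 1 or 2 of SNI-Saline or replicate 3 or 4 of Sham-Saline was left out. Cxcl10, a chemokine that recruits T cells, had 3.18, 2.57, 2.17 and 4.09 CPM in sham and 25.7, 8.49, 5.48 and 8.20 CPM in injured mice (3.98-fold, adjusted p = 0.0250). It was not called without SNI-Saline replicate 1. Cxcl9 was at 2.02, 0.55, 0.639 and 3.02 CPM in sham and 14.7, 7.27, 3.71 and 1.74 CPM in injured mice, which overlap (adjusted p = 0.0956). Cxcr6, a T cell chemokine receptor (1.25), Cxcl16, its ligand (0.48), Ccl8 (1.88) and Ccl12 (0.89) were also raised. Of 18 tested genes of T and natural killer cells Cxcr6 alone was called, 16 were higher and the median was 0.50. The T cell markers Cd3d, Cd3e and Cd3g together were at 0.576 to 0.783 CPM in sham and 0.598 to 1.71 CPM in injured mice, with log2 fold changes of 1.47, -0.23 and 1.13, none of them called. Cxcl14 differed from the other chemokines. It stood at 0.313, 0.677, 0.670 and 0.438 CPM in sham and 1.45, 2, 1.51 and 1.56 CPM in injured mice, without a mouse that stood out (3.08-fold, adjusted p = 0.0150), and was called in every alternative fit.

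An interferon-stimulated response element, here GAAA followed after any 2 bases by GAAA again, was in the 250 bases before the start of 25 of 281 raised genes (8.9%), 9 of 302 lowered genes (2.98%) and 3.27% of all tested genes with a promoter, on either strand. The STAT motif TTCNNNGAA was in 9.61%, 5.96% and 7.16%. The windows printed next are those of the 3 raised genes with the smallest p that hold the response element, from RefSeq (GRCm38.p6) along the strand of the gene, at chr13:56296679-56296758 (minus) for Cxcl14, chr11:82991831-82991910 (minus) for Slfn9 and chr5:92349058-92349137 (minus) for Cxcl10, with the motif in capitals.
Cxcl14: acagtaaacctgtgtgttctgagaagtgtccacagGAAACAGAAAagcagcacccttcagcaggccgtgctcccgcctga
Slfn9: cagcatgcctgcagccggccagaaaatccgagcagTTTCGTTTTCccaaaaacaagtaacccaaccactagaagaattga
Cxcl10: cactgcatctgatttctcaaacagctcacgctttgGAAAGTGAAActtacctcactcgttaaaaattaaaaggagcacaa
In Slfn9 the motif lies on the opposite strand, 35 bases from the start, and in Cxcl14 and Cxcl10 it lies on the strand of the gene, 162 and 203 bases before it.

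Of 38 tested genes of cytokines outside the chemokines and of their receptors, 4 were raised (10.5%, against 2.01% of all genes). In the same list 2 were lowered (5.26%, against 2.05%), and the median log2 fold change was 0.16. Il6 was raised from between 2 and 17 counts per library to between 16 and 31 (log2 fold change 1.5, adjusted p = 0.0571), and Tnfrsf1b, a receptor of tumor necrosis factor, by 0.37, beside Csf1. The call of Il6 was lost when replicate 1, 3 or 4 of Sham-Saline or replicate 1 or 4 of SNI-Saline was left out. In the DMI pair Il6 was not called and had a log2 fold change of -0.51. Il31ra, the receptor of the itch cytokine IL-31, was lowered by 0.38 on the log2 scale (adjusted p = 0.0991) beside Lifr. Of 26 inflammasome and Toll-like receptor genes Tlr13 alone was called (0.87), which is 3.85% raised against 2.01% of all genes. Tlr13, Tnfrsf1b and Il31ra lost the call with the trends on length and GC content removed. They also lost it when replicate 1, 3 or 4 of Sham-Saline or replicate 2 of SNI-Saline was left out. None of 15 neutrophil genes was called by edgeR or DESeq2, and none had an unadjusted p under 0.05. Lysosomal genes were raised in 5 of 42 cases (11.9%, against 2.01% of all genes). They included Cd63 (0.42, adjusted p = 0.000632), a tetraspanin of late endosomes that stood at 48.5 to 54.0 CPM in sham and 65.9 to 68.1 CPM in injured mice, and the cathepsins Ctsz (0.33) and Ctsc (0.42) beside Ctss and Cd68. Ctsd reached an adjusted p of 0.0180 but a log2 fold change of 0.23, below the cut-off.

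In the B cell and plasma cell list 3 of 12 genes were lowered and none raised, 3 were higher after injury and the median was -0.39. Igkc, the constant region of the kappa light chain, was at 8.82, 5.02, 9.27 and 2.17 CPM in sham and 2.10, 1.79, 0.835 and 1.08 CPM in injured mice (0.229 of the sham level, adjusted p = 0.0643). Sham-Saline replicate 4 lay close to the injured mice. Jchain, which joins secreted antibodies (log2 fold change -1.21), and the B cell factor Pax5 (-1.08) were also lowered, and neither exceeded 2.93 CPM in any mouse. Leaving out 1 saline library lost the call of Igkc in 6 of the 8 fits, that of Jchain in 3 and that of Pax5 in 1, and 1 to 4 genes of the list were then lowered. In the DMI pair the list's median was 0.35.

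Channels and receptors of sensory neurons were mostly lower by a small amount. Across 10 lists 29 of 254 tested genes were lowered (11.4%, against 2.05% of all genes) and 2 were raised, Cckbr and Kcnk16. The lists do not hold every member of these families. Among called genes outside them, an inward rectifier (log2 fold change 0.51) and a neuropeptide receptor (0.40) were raised. Another neuropeptide receptor outside them was lowered (-0.39). In all 200 of the 254 were lower after injury, with a median of -0.16. The count lowered was 14 with trends on length and GC content removed, 9 when SNI-Saline replicate 1 was left out, 10 when SNI-Saline replicate 2 was and 10 when Sham-Saline replicate 3 was. These genes are long, with a median exon length of 4810.5 bases against 3404 in all genes tested, and 19 of the 31 called genes were in the longest of 4 equal length classes of all genes.

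Of 14 voltage-gated sodium channels 13 were lower and 3 were called. Scn9a, which encodes Nav1.7, the channel that amplifies small depolarizations in nociceptors, stood at 658, 527, 592 and 608 CPM in sham and 431, 423, 500 and 413 CPM in injured mice (0.741 of the sham level, log2 fold change -0.43, SE 0.0989, adjusted p = 0.0224). All injured mice were below all sham mice, but with the trends removed the log2 fold change was -0.26 and the call was lost. Scn3a was lowered by 0.41 on the log2 scale, and the nociceptor channels Scn10a (-0.18, adjusted p = 0.111) and Scn11a (-0.26, adjusted p = 0.0616) did not pass both cut-offs.

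Of 44 voltage-gated and calcium-activated potassium channels 38 were lower and 7 were called. Kcnb2, a delayed rectifier, was at 281, 214, 239 and 228 CPM in sham and 167, 155, 192 and 166 CPM in injured mice (log2 fold change -0.50, adjusted p = 0.0243), with -0.26 and no call after the trends were removed. Kcnh7 (-0.50), Kcnc2 (-0.38), Kcnd3 (-0.33), Kcnn3 (-0.75), Kcng3 (-1.07) and Kcns2 (-0.57) were the others. Of these, Kcnn3 and Kcng3 kept the call with the trends removed. Both lost it when Sham-Saline replicate 3 or SNI-Saline replicate 1 was left out, and Kcng3 also without SNI-Saline replicate 2. Of the 2-pore and inward-rectifier channels Kcnj6, a G-protein-gated channel (-1), and Kcnk18, the TRESK channel that damps nociceptor firing (-0.42), were lowered. Calcium channel genes were lowered in 5 of 21 cases, namely Cacna1e (-0.52), Cacna1c (-0.35), Cacna1h (-0.42), Cacna1i (-0.57) and the auxiliary subunit Cacnb4 (-0.43). Of these Cacna1h, a low-threshold channel, kept the call with the trends removed. It stood at 105, 113, 125 and 142 CPM in sham and 89.7, 100, 90.6 and 82.2 CPM in injured mice. Its call was lost without replicate 3 or 4 of Sham-Saline or replicate 1 or 4 of SNI-Saline. None of the 26 TRP, HCN, Piezo and acid-sensing channels was called by edgeR and 1 was lowered by DESeq2 (median -0.20). At an unadjusted p under 0.05, 9 of them were lower and 1 higher. Piezo2, the touch channel, had an adjusted p of 0.0745 and a log2 fold change of -0.28, and Trpv1, the capsaicin receptor, overlapped between groups (179 to 278 CPM in sham and 173 to 285 CPM in injured mice, adjusted p = 0.692).

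Of 32 opioid, cannabinoid and monoamine receptors 4 were lowered and none raised, with a median of -0.11. Oprm1, the mu opioid receptor, stood at 25.0, 19.6, 23.5 and 20.4 CPM in sham and 12.1, 13.7, 18.7 and 10.9 CPM in injured mice (0.627 of the sham level, adjusted p = 0.0852), with no overlap. Cnr1, the cannabinoid receptor CB1 (log2 fold change -0.35), Oprk1, the kappa opioid receptor (-0.46), and the serotonin receptor Htr4 (-0.49) were lowered as well. The call was lost in 9 alternative fits for Oprm1, in 9 for Oprk1, in 5 for Htr4 and in 2 for Cnr1. Of 37 GABA and glutamate receptors 3 were lowered. They included the GABA-A subunits Gabrg3, at 3.25 to 7.31 CPM in sham and 2.22 to 4.2 CPM in injured mice (-0.77), and Gabre (-0.65). The purinergic receptor P2ry1 (-0.36) and the somatostatin receptor Sstr4 (-0.63) were single members of their lists. Of these 4, Gabrg3 and Sstr4 lost the call in 10 alternative fits, Gabre in 9 and P2ry1 in 8. Mas-related receptors mark the nonpeptidergic itch and touch neurons of the skin, and Mrgprd, their best known marker, was at 245, 172, 208 and 203 CPM in sham and 129, 144, 158 and 134 CPM in injured mice (0.680 of the sham level, adjusted p = 0.0138). It has a short transcript, and it was called in every alternative fit, with -0.62 after the trends were removed. Mrgpra9 (-1.40) and Mrgprb4 (-0.68) were lowered too, with the call lost in 3 and 8 alternative fits, and 13 of the 15 members tested were lower. Because Mrgpra genes lie in an array of similar copies, the value of Mrgpra9 is uncertain.

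Identity and peptide genes of the neurons changed little beside this. Of 25 sensory identity genes 2 were lowered (8%, against 2.05% of all genes). Runx1, which maintains nonpeptidergic nociceptors, was at 106, 85.2, 100 and 106 CPM in sham and 69.6, 71.7, 75.2 and 82.9 CPM in injured mice (log2 fold change -0.40, adjusted p = 0.0174), and Pou4f2 was lowered by 0.44 on the log2 scale. None of 18 nociceptor peptide and processing genes was called by edgeR or DESeq2, with 2 higher and 2 lower at an unadjusted p under 0.05. Calca, the gene of CGRP, stood at 721, 822, 733 and 782 CPM in sham and 903, 900, 795 and 854 CPM in injured mice (0.17, adjusted p = 0.141). Tac1, the gene of substance P, was at 192, 268, 252 and 291 CPM in sham and 305, 323, 234 and 246 CPM in injured mice (0.14, adjusted p = 0.488). The libraries lowest in Trpv1 (Sham-Saline replicate 1 and SNI-Saline replicates 3 and 4, at 179, 189 and 173 CPM) also had the lowest values of Hoxd10, a gene of the lower lumbar levels (9.30, 5.99 and 5.75 CPM, against 18.7 to 26.6 CPM in the other 5 libraries). The part of the spinal levels taken in these values was not tested. Of 27 genes of transmitter release the large active zone proteins Bsn (-0.38) and Pclo (-0.38) were lowered.

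The 12 lowered genes with the smallest p, among those whose groups did not overlap, were all outside the lists. Thsd7a, a membrane protein with thrombospondin repeats, stood at 150, 143, 159 and 153 CPM in sham and 108, 112, 107 and 96.5 CPM in injured mice (0.700 of the sham level, log2 fold change -0.51, adjusted p = 0.00231). It had the smallest p of them and was called in every alternative fit, as were the neuronal nuclear protein Csrnp3 (-0.60) and Gm14137 (-0.77), which had 2.77 to 3.23 CPM in sham and 1.63 to 1.93 CPM in injured mice. Pgm2l1 (-0.41), which makes a sugar bisphosphate, the RNA-binding protein Rbms3 (-0.39), Rabgap1l (-0.35), Usp31 (-0.35), the transcriptional cofactor Aff3 (-0.35), Neto2 (-0.44), an auxiliary subunit of kainate receptors, Fmn2 (-0.33) and 1700066M21Rik (-0.37) were also among them. With the trends removed Pgm2l1, Rbms3, Rabgap1l, Usp31, Neto2 and Fmn2 were not called, with log2 fold changes from -0.29 to -0.04. Among lowered genes with a mean of at least 1 CPM over the 8 libraries, the changes of largest size were those of Igkc (-2.12), the mitochondrial transfer RNA mt-Tn (-1.22), Jchain (-1.21), the transfer RNAs mt-Tc (-1.15) and mt-Ta (-1.15) and the predicted gene Gm5734 (-1.14). The transfer RNAs lost the call when replicate 1, 3 or 4 of Sham-Saline or replicate 1 or 2 of SNI-Saline was left out. Gm5734 lost it in the same fits except the one without Sham-Saline replicate 3. Several less abundant genes had larger changes. The 13 protein-coding genes of the mitochondrial genome were not called by edgeR (1 was lower at an unadjusted p under 0.05, and DESeq2 lowered 1) and had a median of -0.08.

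Gene length moved with these calls. The median exon length was 2128 bases in raised genes and 7414 in lowered genes, and the median GC content 51.7% and 43.7%, against 3404 bases and 49.4% in all genes tested. The tested genes were split into 4 equal classes by exon length. In the shortest class (up to 1722 bases) 182 were raised and 26 lowered, and in the longest (from 5778 bases) 50 were raised and 269 lowered. The median log2 fold change was 0.101 in the shortest and -0.092 in the longest class. The 4 injured mice did not shift alike, since relative to the mean of the 8 libraries the longest class lay at -0.068, -0.061, -0.005 and -0.042 on the log2 scale in SNI-Saline and at 0.082, 0.005, 0.070 and 0.032 in Sham-Saline. After each library's trend on length and GC content was removed, 209 genes were raised and 171 lowered, and the classes no longer differed in this way (27 raised and 39 lowered in the shortest, 73 and 44 in the longest). Of the genes first called, 172 raised (40%) and 143 lowered (32.6%) were still called. A change in long neuronal genes and a difference in RNA quality or library preparation cannot be told apart here.

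**Figure D4:**
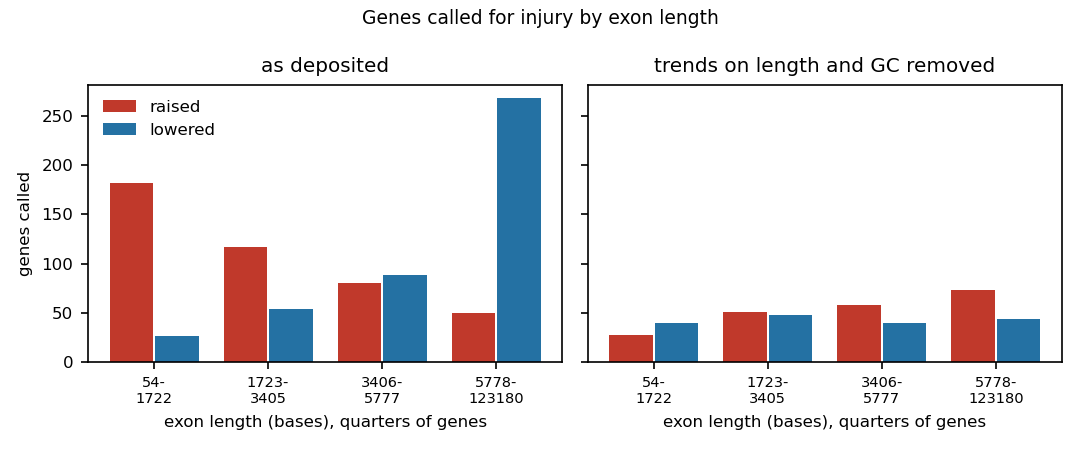
Number of genes raised (red) and lowered (blue) by injury in 4 equal classes of the tested genes by exon length in bases, with the counts as deposited (left) and with the trends on length and GC content removed (right). On the left the raised genes fall from 182 to 50 and the lowered genes rise from 26 to 269 along the classes, and on the right all counts lie between 27 and 73.

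Supporting cells of the ganglion showed few calls. None of 24 Schwann cell and myelin genes was called by edgeR and 1 was raised by DESeq2. Of the 24, 21 were higher, 5 of them and 2 of the lower genes at an unadjusted p under 0.05, and the median was 0.22. Of 18 satellite glia genes Apoe was raised (log2 fold change 0.32), a lipid carrier that macrophages make too, and Gfap, the intermediate filament of reactive glia, was not called (1.84 to 5.07 CPM in sham and 4.43 to 6.49 CPM in injured mice, adjusted p = 0.178). The repair Schwann cell list had 2 of 11 genes raised, Gdnf (1.08) and Olig1 (1.33), neither above 1.04 CPM in any mouse. Of 41 collagens 6 were raised (14.6%, against 2.01% of all genes). Col5a3, an alpha chain of type V collagen, stood at 220, 212, 214 and 201 CPM in sham and 289, 349, 293 and 275 CPM in injured mice (1.42-fold, adjusted p = 0.00205) and was called in every alternative fit, as was Col18a1 (0.46). Col5a2 (0.45), Col16a1 (0.32), Col27a1 (0.42) and Col9a3 (0.48) were the others, while the fibroblast markers Pdgfra, Dcn and Lum overlapped between groups (323 to 471 CPM in sham and 346 to 500 CPM in injured mice, summed). Among matrix proteases and inhibitors Mmp19 (0.56) and Timp1 (0.58) were raised beside Mmp12, and Adamts3 (-0.50) was lowered. The metallothioneins Mt1 and Mt2, which bind zinc and copper, were raised by 0.55 and 0.51. Mt1 was at 29.5, 36.1, 27.1 and 30.7 CPM in sham and at a nearly constant 45.1, 45.2, 44.8 and 45.4 CPM in injured mice (adjusted p = 0.00186).

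Several programs gave no or single calls. By edgeR and by DESeq2 no gene was called among 27 of the unfolded protein response (median 0.04), 16 Hox genes (-0.04), 15 fibroblast genes (0.08), 10 skeletal muscle genes (0.67) and 8 adipocyte genes (0.03). At an unadjusted p under 0.05 these lists held 5, 1, 0, 1 and 0 genes. One gene each was called among 30 of cholesterol metabolism (Apoe), 29 of proliferation (Birc5, 0.39), 20 of endothelium and pericytes (Ly6c1, 0.44) and 19 of the circadian clock (Clock, -0.33). These are shares of 3.33%, 3.45%, 5% and 5.26%, near the 4.07% of all genes called either way. Of 22 immediate early genes Arc (0.43) was raised beside Atf3. In muscle genes the values followed single libraries, with Acta1 and Ckm summing to 14.2 CPM in Sham-Saline replicate 1 and 28.4 CPM in SNI-Saline replicate 2 against 0.779 to 6.26 CPM in the other 6 mice.

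The DMI pair gave a second measurement of the same injury, in mice that shared no library with the saline pair but had received DMI. SNI-DMI against Sham-DMI had 74 raised genes (0.346% of those tested) and 3 lowered (0.014%). Of the 430 genes raised in saline mice 391 (90.9%, against 50.2% of all genes) were also higher in the DMI pair and 56 (13%) were called there. These 56 were 75.7% of the genes raised in the DMI pair. The number called the same way in both pairs moved with single DMI libraries. It was 16 when SNI-DMI replicate 4 was left out, 24 when SNI-DMI replicate 1 was, 26 when Sham-DMI replicate 3 was, 106 and 114 when SNI-DMI replicates 2 and 3 were in turn, and 134 when Sham-DMI replicate 1 was. It was 136 with no filter on low counts and 122 in DESeq2. Of the 439 lowered genes 377 (85.9%, against 49.8% of all genes) were also lower and none was called by edgeR, where 82 had an unadjusted p under 0.05 and DESeq2 called 3. Over all genes 64.3% had the same sign in both pairs. The median log2 fold change in the DMI pair was 0.33 for the raised and -0.15 for the lowered genes, 0.564 and 0.346 of the medians in the saline pair, on whose values the genes were chosen. No gene passed an adjusted p of 0.1 for the difference between both injury effects (1692 genes, 7.92%, had a nominal p under 0.05, and the smallest adjusted p was 0.59), so no gene was shown to respond differently in the pairs. Without SNI-Saline replicate 4, 1 gene passed, Lrrc58 (-0.58 in saline and -0.01 in DMI mice, adjusted p = 0.0771), named because it was the single gene to do so.

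**Figure D5:**
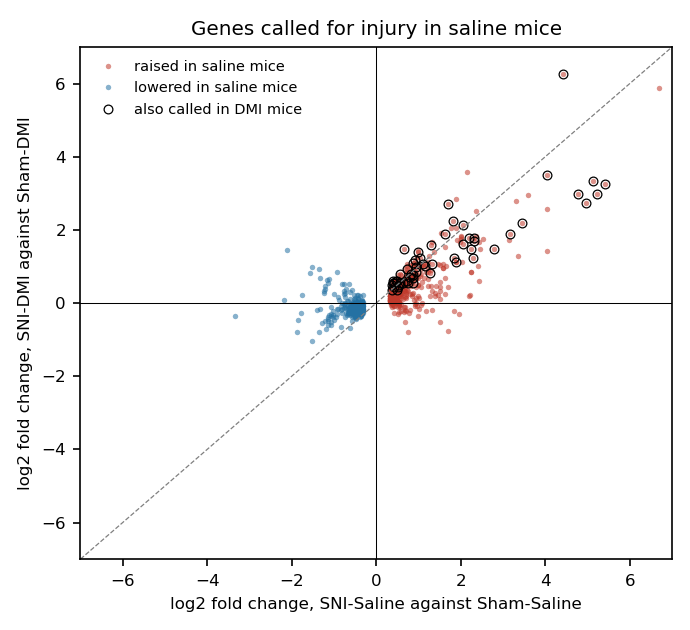
Log2 fold change of injury in saline mice (horizontal axis) and in DMI mice (vertical axis) of the 430 raised (red) and 439 lowered genes (blue), with black rings around the 56 genes also called in DMI mice and a dashed line where both are equal. Most raised genes lie above 0 in the DMI mice and the lowered genes gather near 0.

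The gene groups are set side by side with the DMI pair here, and differences between the groups were not tested. Of the injured-neuron genes 14 of 68 were raised in the DMI pair, beside 0.346% of all genes, and the median was 0.33 there, against 0.20 in saline mice. Ucn (log2 fold change 3.5 in the DMI pair, adjusted p = 0.000432), Npy (3.26), Sprr1a (2.97), Cckbr (2.18), Ecel1 (1.90), Gpr151 (1.77), Atf3 (1.70) and Nts (1.49) were called again, each with a smaller change than in the saline mice, by which they had been chosen. Immune genes had a median of 0.52 in the DMI pair, with 166 of 181 higher, and 4 were raised. The channel and receptor genes had a median of -0.09, with 91 of 254 higher, 3 raised and 1 lowered, beside 0.346% and 0.014% of all genes. Scn9a (-0.19, adjusted p = 0.468), Kcnb2 (-0.26, adjusted p = 0.391), Oprm1 (-0.25, adjusted p = 0.691) and Mrgprd (-0.30, adjusted p = 0.299) were lower in the DMI pair too without passing the test there. Thsd7a, lowered in saline mice in every alternative fit, had a log2 fold change of 0.01 in the DMI pair, and the difference between the pairs was not shown (adjusted p for the difference at least 0.59).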

How the data were processed

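RNA was isolated with TRIzol from the L3-6 DRGs of 1 mouse per library, and libraries were made with the Illumina Stranded mRNA Prep kit. The authors deposited whole-number counts of reads per Ensembl gene, 1 file per library, and the submitters' processing notes name HISAT2, HTSeq, DESeq2 and the mm10 build, without a strand setting. Rows of reads not assigned to a gene for any reason (19.91% and 20.44% of all reads in Sham-Saline replicates 2 and 1, for example) were left out. Genes were filtered with filterByExpr, scaled with TMM and tested in edgeR 4.0.16 (quasi-likelihood, 1 coefficient per group, all 16 libraries, R 4.3.3). Standard errors are the log2 fold change divided by the root of F. Gene positions, exon lengths and GC content came from GENCODE M21, which matched 52489 of the 52636 genes, and promoters from RefSeq. In tests on simulated data 94.7% of genes changed by 1 on the log2 scale with at least 1 CPM were called. Of genes changed by 0.5 with at least 1 CPM 65.4% were called. Without the limit on CPM these shares were 72% and 51%. Of 135 calls 8.89% were genes left unchanged, in simulated libraries that had no trend on length or GC content. Nor did many genes shift together in a single simulated library, so these shares need not hold for the real calls. Named genes were the 12 with the smallest p per direction among groups that did not overlap, the 8 with the largest change per direction, up to 4 called members of each list (the most abundant member where none was called) and defining markers, with the other called members of the lists added after their values were seen. The gene lists and members were chosen with earlier results of these data known. Each mouse is 1 replicate. Alternatives were no or a stricter count filter, upper-quartile scaling, DESeq2 1.42.0, the 8 saline libraries alone, a replicate block, removal of each library's trend on exon length and GC content, and leaving out each library. Replicate numbers did not pair the mice, since the deviations of same-numbered libraries correlated at -0.029, 0.046, 0.184 and -0.072. A few members of the lists and of the named genes are not reported here.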

Additional observations from a re-analysis of the deposited data

Results flagged for a closer look

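In 23 of 352 groups of 4 libraries 1 library stood apart from the other 3, where chance gives about 1 in 20. In SNI-Saline the highest library stood apart for Ctss (46.3 CPM), C1qa (51.3), C3 (25.3), H2-Aa (157) and H2-DMa (26.5), all in replicate 2, and for Gbp2 (169), Gbp5 (23) and Cxcl10 (25.7), all in replicate 1. Kcng3 (6.17 CPM), Pclo (227) and Timp1 (4.24) stood apart upward in SNI-Saline replicate 3, Oprk1 (3.61) upward and Cacna1i (11.8) downward in replicate 1, and Pou4f2 (13.5) downward in replicate 4. The red cell markers summed to 37.1 CPM in SNI-Saline replicate 2. In Sham-Saline Npy (1.55 CPM) and Gap43 (254) stood apart in replicate 2, Gpr151 (2.19), 1700066M21Rik (39.2), Timp1 (3.13), Clock (107) and the muscle markers (14.2) in replicate 1, and mt-Tn (3.32) in replicate 4, all upward.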

How the results depend on the processing

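Without a cut-off on the fold change 1250 genes were raised and 1321 lowered. With the trends on gene length and GC content removed 209 were raised and 171 lowered. Leaving out 1 library gave 169 to 517 raised and 149 to 586 lowered genes. The low values came without Sham-Saline replicate 1 (277 and 225), replicate 3 (169 and 172) and replicate 4 (236 lowered) and without SNI-Saline replicate 1 (223 and 149) and replicate 2 (209 and 154). Genes called the same way in the DMI pair numbered 136 with no filter on low counts, 122 in DESeq2 and 16 to 134 without 1 library, the ends being without SNI-DMI replicate 4 and Sham-DMI replicate 1. They were 26 without Sham-DMI replicate 3 and 24, 106 and 114 without SNI-DMI replicates 1, 2 and 3. For the difference between the pairs 0 to 1 genes passed. The cause was not tested. The fit with a replicate block, although the numbers do not pair the mice, gave 388 raised and 415 lowered genes. Of the 150 called genes named, 36 kept their call under every alternative, 80 lost it under an alternative other than leaving out a library, 104 lost it without 1 library, and none changed sign. With 4 mice per group, changes that are small beside the spread between mice cannot be detected.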
